A study of Homo sapiens with 18 samples.

Results

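NELFE, PPT2, EHMT2, CSNK2B, BAG6, DXO and STK19 are 7 protein-coding genes of the gene-dense major histocompatibility complex class III (MHC-III) region on human chromosome 6. They were chosen by name, with earlier results of these data known. Of the 13051 transcripts in a table of readthrough reads 7 were theirs, once transcript identifiers had been matched to gene symbols with GENCODE release 44. That release matched 12704 of the transcripts. The values come from long-read sequencing of nascent, chromatin-associated RNA of K562, an established human erythroleukaemia cell line that is driven by the Bcr-Abl1 kinase. A readthrough read is a read of a gene whose 3′ end lay more than 100 nt beyond the annotated end of the counted transcript, so it is RNA that was still uncleaved past that end when it was captured.

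The 18 libraries fall into 6 groups of 3 biological replicates, all from K562 cells. Untreated cells (CTRL) are the reference for cells kept for 45 min in 110 mM KCl, a hyperosmotic shock, and for cells given 5 µM JTE-607 for 1 h (JTE), a compound that inhibits the cleavage endonuclease CPSF73. A second untreated group (CTRLim) is the reference for cells given 1 µM imatinib (IM), a Bcr-Abl1 kinase inhibitor, for 1 h or for 18 h. IM 1 h and IM 18 h share CTRLim, and JTE and KCl share CTRL, so the comparisons within each pair are not independent. The labels name no genetic change in any group, and a difference between the CTRL and the CTRLim set cannot be told apart from treatment, so tests were made within each set only.

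A polyadenylated gene normally ends when its nascent RNA is cut downstream of a polyadenylation signal, usually AAUAAA, by a complex that contains CPSF73, and RNA polymerase II is then released. Where that cut is late or fails, the polymerase goes on into the neighbouring DNA, and in a region as crowded as MHC-III the neighbouring DNA is often another gene. NELFE encodes the RNA-binding subunit of the negative elongation factor NELF, which holds RNA polymerase II in promoter-proximal pausing.

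Readthrough reads numbered 8422 to 57982 per library. To compare libraries, counts were divided by the reads that entered the analysis of each library and are given per 1000000 library reads (RPM). A single read was worth between 0.741 RPM in the deepest library and 4.35 RPM in the shallowest, and a count of 0 allowed up to 2.2 to 13.1 RPM (3 reads), limits that cover counting error only. Of 9 erythroid and K562 marker genes 8 were in the table, each with 38 to 4159 readthrough reads over the 18 libraries, and of 7 markers of other cell types 3 were in the table, with 1 to 4 reads. RPM values are not divided by length and are not compared between genes. A higher RPM can come from more transcription of the gene or from a smaller share of cleaved transcripts, and these cannot be told apart here because gene body reads were not used.

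Most of the 7 counted ends lie inside another gene. The position from which reads were counted fell within another protein-coding or long noncoding gene for 6 of the 7 members (85.7%), against 4209 of 12693 matched nuclear transcripts (33.2%). On the same strand the numbers were 3 of 7 (42.9%) and 1281 (10.1%). BAG6 was the exception, with no other gene at its first counted position. These are counts of annotation, without a test.

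NELFE (chr6:31952087-31959038, minus strand, ENST00000375429, GRCh38) ends in exon 11 and meets CFB, the complement factor B gene, tail to tail with the CFB end on the opposite strand 1 nt away. Position 31951986, from which reads of NELFE were counted, lies within CFB and within the overlapping gene ENSG00000244255, both on the opposite strand. PPT2 (chr6:32153441-32163678, plus strand, ENST00000324816) ends in exon 9. It is followed on the same strand 920 nt further by EGFL8 and is overlapped by PPT2-EGFL8, a gene annotated across both. EHMT2 (chr6:31879759-31897698, minus strand) has SLC44A4 on the same strand 713 nt downstream, with the antisense transcript EHMT2-AS1 over its end.

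CSNK2B (chr6:31665227-31670343, plus strand) runs into LY6G5B and into the overlapping gene ENSG00000263020, both on its own strand. BAG6 (chr6:31639028-31652705, minus strand) faces PRRC2A, 1257 nt away on the opposite strand. DXO (chr6:31969810-31972290, minus strand) overlaps the last bases of SKIC2, on the opposite strand. STK19 (chr6:31971091-31982821, plus strand) overlaps the start of DXO on the opposite strand, and the complement gene C4A, on its own strand, starts at -764 nt relative to its counted end. Reads of CSNK2B, PPT2 and STK19 could be credited to the same-strand neighbour or the reverse, so these counts are uncertain to that extent. Whether strand was used in assigning reads is not given in the sources used here, so the counts of NELFE, EHMT2 and DXO are uncertain in the same way with respect to their opposite-strand neighbours. C4A itself has a near-identical copy, C4B.

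**Figure D1:**
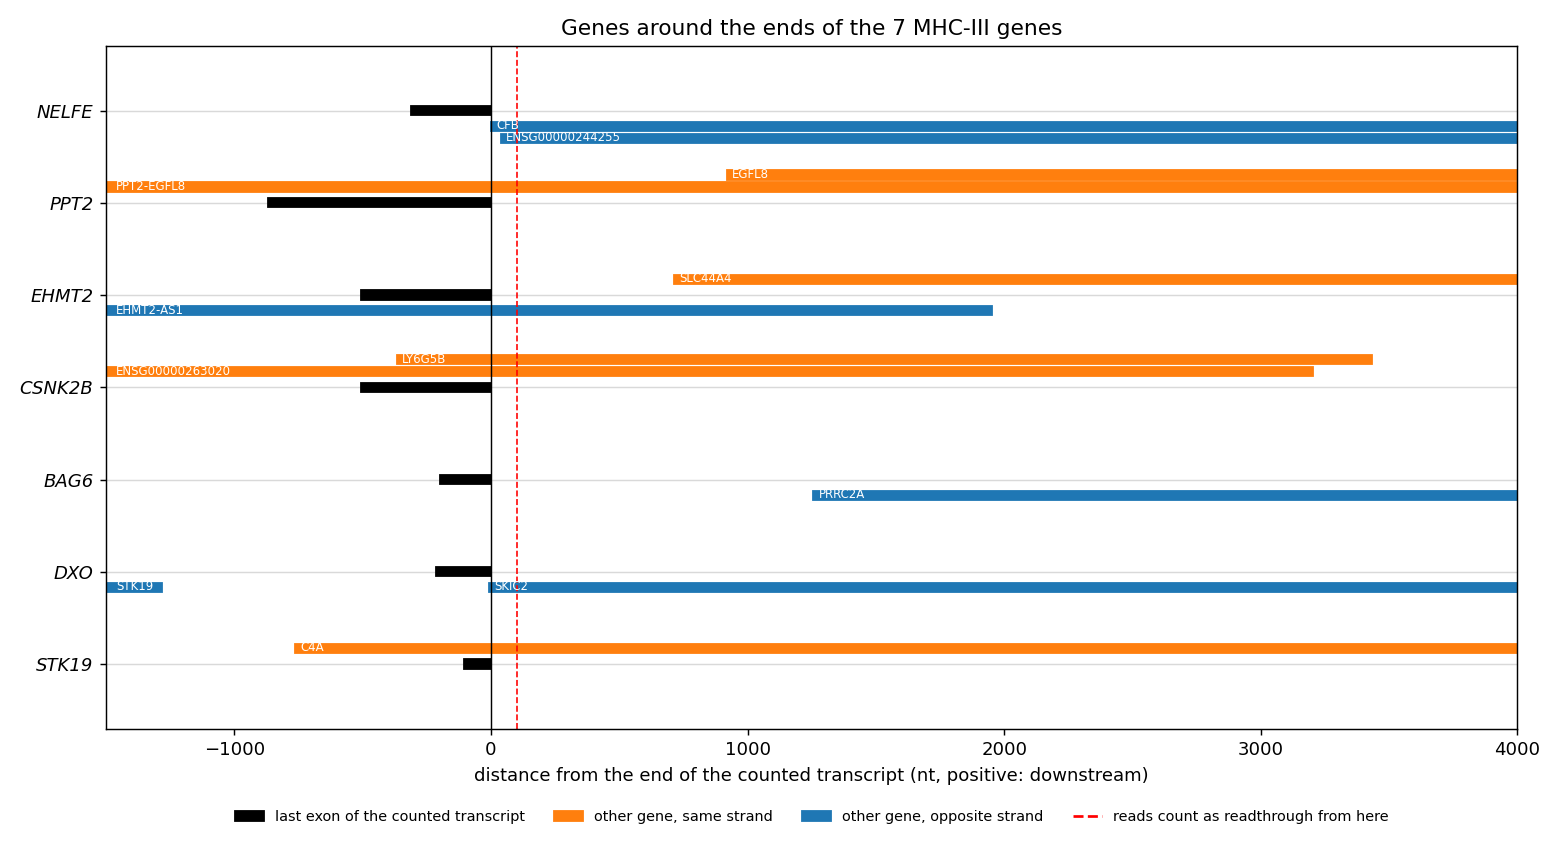
Annotated genes around the counted 3′ end of each of the 7 genes; the horizontal axis is the distance in nt from that end along the direction of transcription, black bars are last exons of the counted transcripts, orange and blue bars are other genes on the same and on the opposite strand, and the red line marks 100 nt. The red line crosses another gene in every row except BAG6.

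For only 2 members, NELFE and PPT2, was the counted transcript the canonical one (28.6%, against 56.5% of the matched nuclear transcripts). The counted transcripts of EHMT2 (ENST00000494816), CSNK2B (ENST00000468255), BAG6 (ENST00000441793) and DXO (ENST00000491327) are retained-intron forms and that of STK19 (ENST00000519179) is a nonsense-mediated decay form. The end used for CSNK2B lay 276 nt from the end of its canonical transcript and that for STK19 1375 nt, whereas the other ends lay within 5 nt. For CSNK2B and STK19 the readthrough count thus depends on an alternative end.

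The last 30 bases of each counted transcript are given below in the sense of the RNA, 5′ to 3′, since they hold the place where a polyadenylation signal is normally found. They were read from the GRCh38 genome at chr6:31952087-31952116 (NELFE, minus strand), chr6:32163646-32163675 (PPT2, plus), chr6:31879759-31879788 (EHMT2, minus), chr6:31670314-31670343 (CSNK2B, plus), chr6:31639028-31639057 (BAG6, minus), chr6:31969810-31969839 (DXO, minus) and chr6:31982792-31982821 (STK19, plus). Capitals mark the motif AATAAA, searched on the transcribed strand only.
NELFE: ctcccttgccccaaaaggatctggaacaca
EHMT2: ttctcAATAAAtgttgggtttggtAATAAA
DXO: agatAATAAAagcatatttctaagaggttc
STK19: ttcgccatggctaaaggactctctgtccag
CSNK2B: atgactgtctgtttatactgtaaggggctt
BAG6: agtcggatttttctggctgctttctctcta
PPT2: tatttatggaAATAAAgttccatttcctca
AATAAA was present in 3 of the 7 windows, those of PPT2, EHMT2 and DXO (42.9%), against 6617 of 12693 matched nuclear transcripts (52.1%). The variant ATTAAA without AATAAA was in none of the 7 and in 1639 transcripts (12.9%). NELFE, CSNK2B, BAG6 and STK19 had neither motif in these 30 bases, as did 4437 of all matched transcripts (35%). NELFE and CSNK2B, which lack both motifs in the window, and PPT2, which has AATAAA, were the 3 members with the most readthrough reads.

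Over all 18 libraries NELFE had 277 readthrough reads, CSNK2B 261, PPT2 188, DXO 59, STK19 30, BAG6 20 and EHMT2 4. Only 180 transcripts had more reads than NELFE, so 98.59% of the table had fewer. CSNK2B was above 98.43% and PPT2 above 97.27% of transcripts, while EHMT2 was above 31.7%. A gene was tested in a comparison when it had at least 30 reads over the 6 libraries compared. NELFE and CSNK2B passed in all 5 comparisons, PPT2 in 4, DXO in 1 and EHMT2, BAG6 and STK19 in none.

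**Figure D2:**
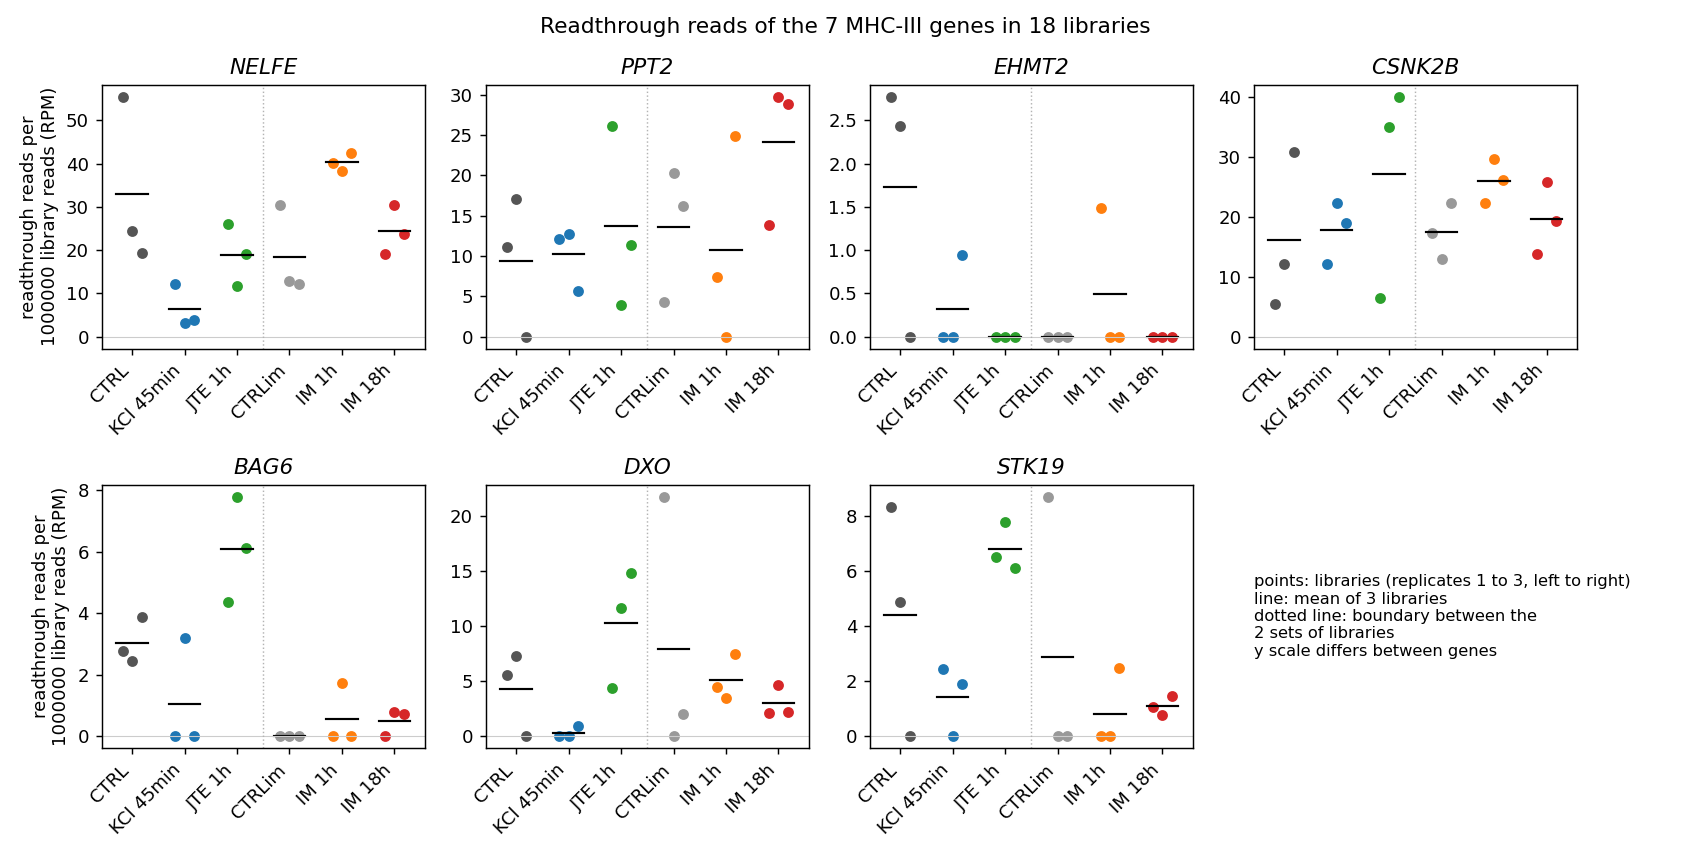
Readthrough reads of each gene in RPM (vertical axis, scale differs between genes) in each of the 18 libraries, by group; points are libraries and the black line is the mean of 3. NELFE lies between 38.4 and 42.4 RPM in the 3 IM 1 h libraries and between 3.19 and 12.2 RPM in the 3 KCl libraries.

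NELFE readthrough was higher after 1 h of imatinib and lower after KCl than in the matching untreated cells. In CTRLim the 3 replicates had 7, 7 and 6 reads, or 30.5, 13 and 12.2 RPM. After IM 1 h they had 27, 22 and 34 reads, or 40.1, 38.4 and 42.4 RPM. All IM 1 h replicates were above all CTRLim replicates, and the IM 1 h replicates were close to each other (40.3 ± 1.99 RPM, SD, n = 3, against 18.5 ± 10.3 RPM in CTRLim).

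Genes were tested with edgeR's quasi-likelihood test, and p-values were adjusted over all genes tested by the Benjamini-Hochberg method. The log2 fold change of NELFE at IM 1 h was 1.33 (SE 0.354, adjusted p = 0.013), which was 1.15 above the median of 0.19 of all 988 genes tested. NELFE was the member called of 3 tested, where 1.52% of all genes tested were called. It was also among the 2 genes of the 988 called higher (0.202%), whereas 13 were called lower. Groups that do not overlap, with IM 1 h the higher, were found in 13% of all genes tested. Since NELFE was chosen with earlier results of these data known, these shares are background only. The call was lost in 10 of 14 alternative fits and was kept in 2 of the 6 that left out a library. The adjusted p was 0.0592 after TMM scaling, where the log2 fold change was 1.15, and 0.667 with DESeq2.

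After IM 18 h NELFE stood between these levels, with 18, 39 and 32 reads, or 19.2, 30.5 and 23.7 RPM (24.5 ± 5.73 RPM, SD, n = 3). These values overlapped those of CTRLim, through its first replicate, and all were below those of IM 1 h. Against CTRLim the log2 fold change was 0.60 (SE 0.408, adjusted p = 0.353, edgeR's quasi-likelihood test), which did not pass the threshold. None of the 3 members tested in this comparison was called, and none had an unadjusted p under 0.05, where 14.1% of 1386 genes were called. DESeq2 called none of the members either.

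The time points themselves were compared directly. The labels give no time for CTRLim, so time under imatinib cannot be told apart from time in culture in this comparison. Of the 3 members tested 2 were called, NELFE lower and PPT2 higher at 18 h, where 18.3% of 1720 genes were called, 14.1% lower and 4.19% higher. That split depended on scaling, with 243 genes lower and 72 higher in this fit and 92 lower and 111 higher with TMM. NELFE fell by 0.70 on the log2 scale from 1 h to 18 h (SE 0.261, adjusted p = 0.0455, edgeR's quasi-likelihood test). The median gene was lower by 0.30 on this scale, so that NELFE lay at -0.40 relative to it. With TMM scaling, which puts the median at -0.01, the log2 fold change of NELFE was -0.41 and the adjusted p 0.324. NELFE kept this call in 1 of 14 alternative fits. Groups that do not overlap, with IM 18 h the lower, were found in 26.3% of genes.

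Hyperosmotic shock had the lowest NELFE levels. The CTRL replicates had 20, 10 and 5 reads, or 55.4, 24.4 and 19.3 RPM, and the KCl replicates 5, 1 and 4 reads, or 12.2, 3.19 and 3.79 RPM. The highest KCl replicate was below the lowest CTRL replicate, but the CTRL replicates were widely spread (33.1 ± 19.6 RPM in CTRL, 6.38 ± 5.03 RPM in KCl, SD, n = 3). The single read of the second KCl replicate has an exact Clopper-Pearson 95% interval of 0.0807 to 17.7 RPM.

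NELFE fell by 2.45 on the log2 scale with KCl (SE 0.644, adjusted p = 0.00291, edgeR's quasi-likelihood test), and lay at -2.06 relative to the median of the 378 genes tested, which was -0.39. It was the member called of 2 tested, where 25.1% of genes were called, 20.9% of genes being called lower. NELFE had 35 reads in CTRL and 10 in KCl, so it reached the minimum for testing only through CTRL, where it was high. This call and these shares are therefore not independent of that filter. With a minimum of 10 reads NELFE was at -2.45 (adjusted p = 0.00318, edgeR's quasi-likelihood test). In that fit 256 genes were called, against 95 here. Without a minimum NELFE was at -2.45 (adjusted p = 0.0148, same test). Groups that do not overlap, with KCl the lower, were found in 28% of genes. Without the first CTRL replicate the log2 fold change was -1.87 and the adjusted p 0.0652.

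After JTE-607 NELFE had 12, 6 and 22 reads, or 26.1, 11.7 and 19.2 RPM (19.0 ± 7.23 RPM, SD, n = 3). These values overlapped those of CTRL. The log2 fold change was -0.81 (SE 0.595, adjusted p = 0.632, edgeR's quasi-likelihood test), against a median of 0.49 over the 969 genes tested. NELFE thus lay at -1.30 relative to the median gene, in a comparison where 0 of the 4 members tested were called and 0.103% of genes were called. No member had an unadjusted p under 0.05, as 108 of the 969 genes did, and DESeq2 called none of the members and 1 gene in all. Readthrough reads made up 3.06% of library reads in the first JTE replicate, 5.40% and 5.05% in the others and 3.32% to 3.55% in CTRL. The study tabulates a shorter median read length for the first JTE replicate than for the others. Median lengths also differed among the CTRL and among the KCl replicates. Whether read length changed these counts was not tested. Without that first replicate 75 genes were called and still 0 members, and NELFE was at -1.04 (adjusted p = 0.205, edgeR's quasi-likelihood test). The number of genes called with JTE-607 thus changed with the libraries in the fit, and was 30 in a fit of all 18 libraries. No member was called in any of the 14 alternative fits.

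By mean RPM the order of the groups for NELFE was IM 1 h, IM 18 h and CTRLim in the imatinib set and CTRL, JTE and KCl in the other. IM 18 h overlapped CTRLim but not IM 1 h, and JTE overlapped both CTRL and KCl. CTRL and CTRLim, both untreated, overlapped at 19.3 to 55.4 and 12.2 to 30.5 RPM.

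**Figure D3:**
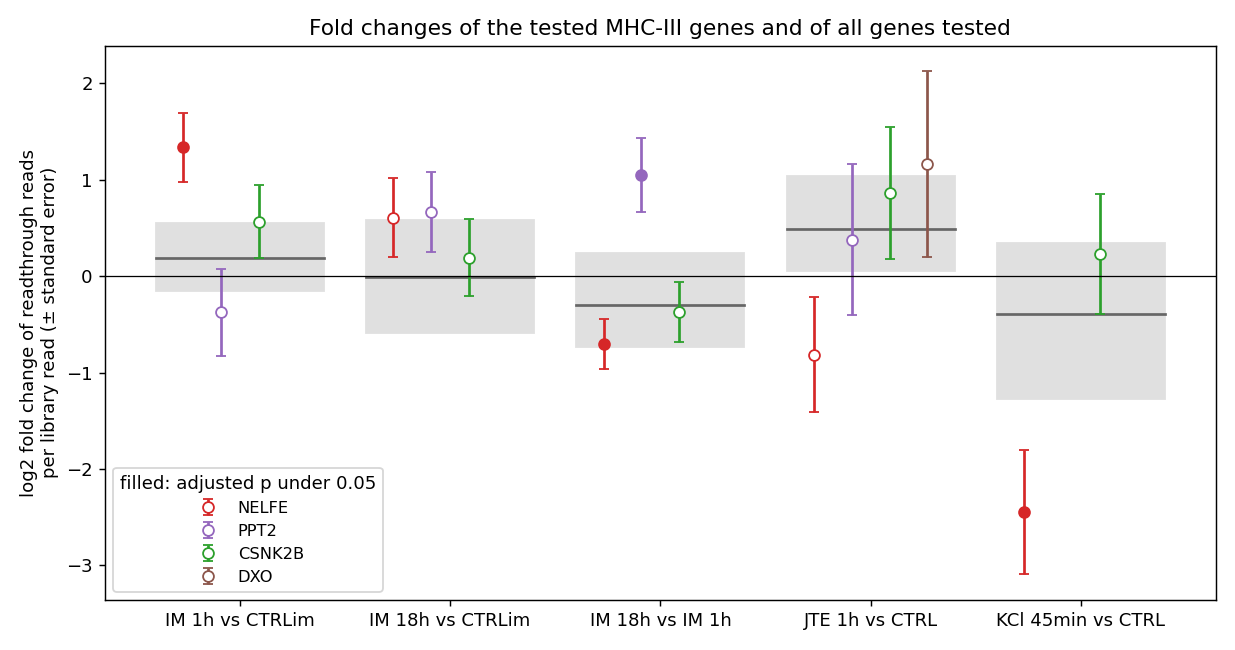
Log2 fold change of readthrough reads per library read (vertical axis, ± standard error) of NELFE, PPT2, CSNK2B and DXO in the comparisons where each was tested, with filled points for an adjusted p under 0.05; the grey box runs from the lower to the upper quartile of all genes tested and its line their median. NELFE is above the box at IM 1 h (1.33) and at IM 18 h against CTRLim (0.60), below it with KCl (-2.45) and JTE (-0.81), and inside it between the imatinib time points (-0.70).

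EHMT2 encodes the histone H3 lysine 9 methyltransferase G9a. Its 4 readthrough reads came from the first and second CTRL replicates, the third KCl replicate and the first IM 1 h replicate, with 1 read each. At this depth no difference between groups was detectable. SLC44A4, the choline transporter family gene next to it, had 22 reads of its own in the 18 libraries.

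DXO encodes a decapping and exoribonuclease enzyme that removes faulty 5′ caps from RNA. It had most reads after JTE-607, with 2, 6 and 17 reads, or 4.35, 11.7 and 14.8 RPM, against 2, 3 and 0 reads in CTRL. The groups overlapped through the first JTE replicate (10.3 ± 5.37 RPM in JTE, 4.29 ± 3.81 RPM in CTRL, SD, n = 3). The log2 fold change was 1.16 (SE 0.966, adjusted p = 0.66, edgeR's quasi-likelihood test), which did not pass the threshold.

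In KCl a single DXO read was found, in the third replicate. Relative to library reads the pooled ratio of KCl to CTRL was 0.116, with an exact 95% interval from counting alone of 0.00245 to 1.03. In the imatinib set DXO had 5, 0 and 1 reads in CTRLim, 3, 2 and 6 after IM 1 h and 2, 6 and 3 after IM 18 h. These groups overlapped, and in RPM the first CTRLim replicate was the highest of the 9 libraries, at 21.8 RPM. SKIC2, into whose end DXO runs, had 65 reads over the 18 libraries and reached 9 and 11 reads in the second JTE and the second IM 18 h replicate.

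STK19 encodes a nuclear protein that takes part in transcription-coupled DNA repair. Its reads were 3, 2 and 0 in CTRL, 1, 0 and 2 in KCl and 3, 4 and 7 in JTE. The 3 JTE replicates lay close together at 6.53, 7.78 and 6.10 RPM (6.80 ± 0.872 RPM, SD, n = 3) and overlapped CTRL through its first replicate. In a fit that kept genes with at least 10 reads the log2 fold change was 0.46 (SE 0.919, adjusted p = 0.919, edgeR's quasi-likelihood test). In the imatinib set STK19 had between 0 and 2 reads per library.

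CSNK2B, the regulatory subunit of the protein kinase CK2, had reads in all 18 libraries. In CTRL it had 2, 5 and 8 reads, or 5.54, 12.2 and 30.9 RPM, and in KCl 5, 7 and 20 reads, or 12.2, 22.3 and 18.9 RPM. In JTE it had 3, 18 and 46 reads, or 6.53, 35.0 and 40.1 RPM. The first JTE replicate was at the level of the lowest CTRL replicate, while the other two were above all of CTRL.

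Against CTRL the log2 fold change of CSNK2B was 0.87 with JTE-607 (SE 0.684, adjusted p = 0.648) and 0.23 with KCl (SE 0.623, adjusted p = 0.831) in edgeR's quasi-likelihood test. Without the first JTE replicate the first of these was 1.33, with an adjusted p of 0.129. In that same fit 75 genes passed the threshold, where 1 did with all 6 libraries of the comparison.

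In CTRLim CSNK2B had 4, 7 and 11 reads, or 17.4, 13 and 22.3 RPM, and after IM 1 h 15, 17 and 21 reads, or 22.3, 29.7 and 26.2 RPM. After IM 18 h it had 13, 33 and 26 reads, or 13.8, 25.8 and 19.3 RPM. Each of these groups overlapped the others. CSNK2B had a log2 fold change of 0.56 after IM 1 h (SE 0.379, adjusted p = 0.503), 0.19 at IM 18 h (SE 0.402, adjusted p = 0.795) and -0.37 between the time points (SE 0.312, adjusted p = 0.447), none past the threshold in edgeR's quasi-likelihood test. By mean the order was IM 1 h, IM 18 h and CTRLim in this set and JTE, KCl and CTRL in the other, and neighbours in each order overlapped. ENSG00000263020, annotated over its end, had 34 reads of its own in the 18 libraries.

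BAG6 encodes a chaperone for membrane and misfolded proteins. It had 1 read in each CTRL replicate and 2, 4 and 7 reads in JTE, or 4.35, 7.78 and 6.10 RPM. All JTE replicates were above all CTRL replicates (6.08 ± 1.71 against 3.03 ± 0.748 RPM, SD, n = 3). BAG6 did not reach 30 reads, and among the genes that did, JTE was the higher without overlap in 12%.

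The pooled ratio of BAG6 in JTE to CTRL was 2.10 per library read, with an exact 95% interval from counting alone of 0.578 to 11.5. With genes of at least 10 reads the log2 fold change was 1.01 (SE 1.05, adjusted p = 0.821, edgeR's quasi-likelihood test). In the 9 libraries of the imatinib set BAG6 had 3 reads in all, none of them in CTRLim, and in KCl it had 1. PRRC2A, the convergent gene beyond its end, had 9 reads of its own.

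PPT2 encodes a lysosomal thioesterase of the palmitoyl-protein thioesterase family. In CTRLim it had 1, 11 and 8 reads, or 4.35, 20.4 and 16.3 RPM, and after IM 1 h 5, 0 and 20 reads, or 7.43, 0 and 24.9 RPM. After IM 18 h it had 13, 38 and 39 reads, or 13.8, 29.8 and 28.9 RPM (24.2 ± 8.96 RPM, SD, n = 3). The 3 groups overlapped, and IM 1 h was the most scattered (10.8 ± 12.8 RPM). Its second replicate had no read, where a count of 0 allows up to 5.23 RPM.

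PPT2 was higher at 18 h than at 1 h of imatinib, by 1.04 on the log2 scale (SE 0.386, adjusted p = 0.0441, edgeR's quasi-likelihood test) and by 1.34 relative to the median gene. That value rested on single libraries: it was 0.56 (adjusted p = 0.404) without the second IM 1 h replicate and 2.60 (adjusted p = 0.00811) without the third. With DESeq2 the adjusted p was 0.608. Relative to CTRLim, PPT2 had a log2 fold change of -0.37 after IM 1 h (SE 0.453, adjusted p = 0.75) and 0.66 after IM 18 h (SE 0.42, adjusted p = 0.314), neither past the threshold in edgeR's quasi-likelihood test.

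In the other set PPT2 had 4, 7 and 0 reads in CTRL (11.1, 17.1 and 0 RPM) and 5, 4 and 6 in KCl (12.2, 12.7 and 5.68 RPM). In JTE it had 12, 2 and 13 reads (26.1, 3.89 and 11.3 RPM). These groups overlapped. The log2 fold change with JTE-607 was 0.38 (SE 0.785, adjusted p = 0.876), and that with KCl, in a fit that kept genes with at least 10 reads, was -0.17 (SE 0.719, adjusted p = 0.932), both by edgeR's quasi-likelihood test. EGFL8, the next gene on the same strand, had 28 reads of its own in the 18 libraries, of which 6, 2 and 3 were in IM 18 h. PPT2-EGFL8 had 6.

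By mean RPM in the imatinib set, NELFE and CSNK2B were highest at 1 h and PPT2 at 18 h. The groups overlapped for CSNK2B and PPT2. Between the time points NELFE kept its call in 1 of 14 alternative fits and PPT2 in 5, and CSNK2B was not called. Among 374 genes with at least 180 reads in all, those whose profile over the 18 libraries was closest to that of NELFE included MRPS7, the transcript ENST00000330244, which was not matched to a symbol, PREB and UFC1. Their root mean square distances on the log2 scale were 0.660, 0.679, 0.682 and 0.697, where the median gene was at 1.11. MRPS7 encodes a mitochondrial ribosomal protein, and MRPS7, PREB and UFC1 lie on other chromosomes. CSNK2B ranked 282 (1.30) and PPT2 354 (1.67) of the 374, so the 2 members from the same region were among the less similar genes. Low counts add counting error to the distance. PPT2 had 188 reads, with none in the third CTRL and the second IM 1 h replicate, though PREB, among the closest, had 183. The libraries share their depth across all genes, and the distances were not tested. Profiles span the CTRL and the CTRLim set, so a difference between the sets enters the distances as well.

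**Figure D4:**
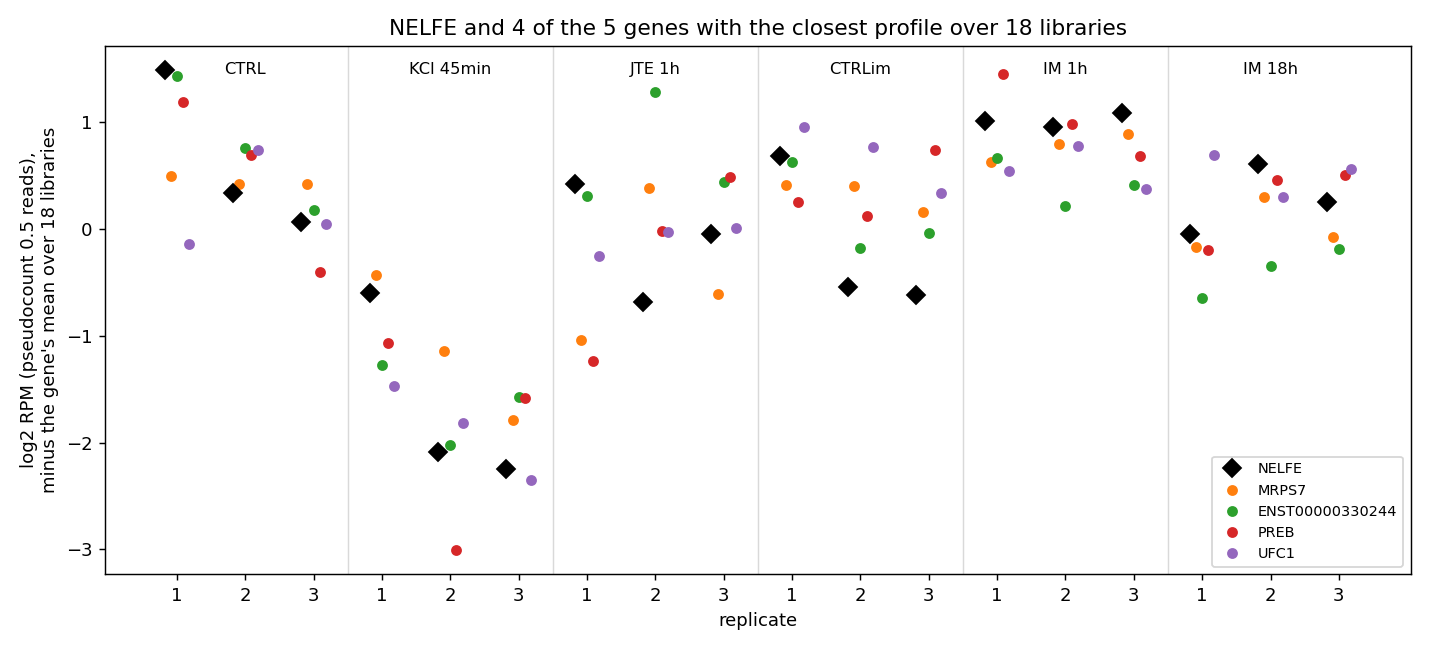
Log2 RPM of NELFE and of 4 of the 5 genes closest to it in each of the 18 libraries, with each gene's mean over the libraries subtracted (vertical axis, log2) and libraries ordered by group; diamonds are NELFE and circles the other genes. The KCl libraries lie below the mean of each of the 5 genes, and the 3 IM 1 h libraries above it. The circled genes were selected for closeness to NELFE over these same libraries, so this likeness follows from the selection.

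The other genes of the MHC-III region were followed in a list of 51, of which 41 were in the table and 12 had at least 30 readthrough reads in all. CLIC1, an intracellular chloride channel protein, had the most (228), and the median was 13. Between 1 and 5 of these neighbours could be tested per comparison, and edgeR's quasi-likelihood test called none of them in any. Their median log2 fold change was 0.58 at IM 1 h, over 3 genes of which 1 was below 0, where that of NELFE, CSNK2B and PPT2 was 0.56 and that of all genes 0.19. Between the imatinib time points it was 0.24, against -0.37 for the 3 members and -0.30 for all genes. It was 0.02 at IM 18 h against CTRLim and -0.03 with JTE-607, where all genes had -0.01 and 0.49. With KCl the sole tested neighbour had -0.80, NELFE -2.45 and all genes a median of -0.39.

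A list of 26 pausing and elongation factors, the pathway of NELFE, had 25 members in the table and 11 with at least 30 reads. NELFB, another NELF subunit, had no readthrough read. Of 5 tested at IM 18 h against CTRLim 1 was called, ELL2, where 14.1% of all genes were, and of 6 tested between the imatinib time points 2 were called, ELL2 and CDC73, where 18.3% of all genes were. In the other comparisons 1 to 3 were tested and none was called. ELL2 and CDC73 reached 30 reads only through IM 18 h, where they had 73 and 27 reads, against 8 and 4 after IM 1 h. Being tested thus depended on the group in which they were high, so these calls and their share are not independent of that filter. ELL2, a subunit of the super elongation complex, had 0, 1 and 2 reads in CTRLim, 5, 1 and 2 after IM 1 h and 26, 23 and 24 after IM 18 h. All IM 18 h replicates were above all others of the set, and the pooled ratio of IM 18 h to CTRLim was 8.61 per library read (exact 95% interval from counting alone 2.83 to 42.7, adjusted p = 0.00047 in edgeR's quasi-likelihood test). CDC73, a subunit of the PAF1 complex, had 2, 1 and 1 reads after IM 1 h and 3, 10 and 14 after IM 18 h, and the log2 fold change between the time points was 1.87 (SE 0.658, adjusted p = 0.0332, edgeR's quasi-likelihood test). NELFE was lower in that contrast.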

How the data were processed

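The authors sequenced poly(A)- and rRNA-depleted chromatin RNA of K562 cells on PacBio RS II and Revio instruments. The paper does not state which library was run on which instrument. They trimmed reads with cutadapt, mapped them to GRCh38.p14 with minimap2 and collapsed molecular identifiers. They then removed poly(A) reads, non-unique reads and splicing intermediates, and deposited unnormalized counts of readthrough reads per transcript. Reads overlapping several genes were credited to the gene with the greatest overlap, and whether strand was used in that step is not given in the sources used here. Each transcript's count came from the form with the most distal 3′ end.

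From these counts, RPM was computed with each library's total without poly(A) reads and splicing intermediates (229855 to 1349556 reads), as the study tabulates it. Genes with at least 30 reads over the 6 libraries of a comparison were fitted with edgeR 4.0.16 (glmQLFit, glmQLFTest, R 4.3.3), with the library totals as library sizes and no covariate, and p-values were Benjamini-Hochberg adjusted over all genes fitted, with a threshold of 0.05. The fit was tested on simulated data. Alternatives were a minimum of 10 or no minimum, TMM or readthrough-total scaling, DESeq2 1.42.0, a fit of all 18 libraries, a replicate block, and leaving out each library. Annotation was GENCODE 44. Likeness to NELFE was the root mean square of centred log2 RPM (pseudocount 0.5 reads). Intervals were exact at 95%. The genes named are the 7 members, their downstream neighbours, called genes of 2 lists (neighbours and elongation factors) and the 5 genes closest to NELFE, of which 1 is not reported here. The members and lists were chosen with earlier results of these data known.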

Additional observations from a re-analysis of the deposited data

Results flagged for a closer look

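NELFE readthrough differed between the imatinib time points by the direct test of 18 h against 1 h (log2 fold change -0.70, adjusted p = 0.0455, edgeR's quasi-likelihood test), with all 3 replicates at 18 h below all 3 at 1 h. PPT2 readthrough differed in the opposite direction (1.04, adjusted p = 0.0441, edgeR's quasi-likelihood test), with overlapping replicates. Against CTRLim neither PPT2 at 1 h and 18 h nor NELFE at 18 h passed the threshold. The labels give no time for CTRLim, so time under imatinib cannot be told apart from time in culture. Both time points share the CTRLim libraries as reference, and over 14 alternative fits NELFE kept its call in 1 and PPT2 in 5, neither of them in DESeq2.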

How the results depend on the processing

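Of 210 alternative values of the members' fold changes, 169 kept direction and side of the threshold, 34 kept only the direction and 7 reversed. At IM 1 h NELFE was called in 4 of 14 alternatives: adjusted p was 0.107 without a minimum (log2 fold change 1.33), 0.0592 with TMM (1.15), 0.667 and 0.892 with DESeq2 on library totals and on its own size factors (1.29 and 1.13), and 0.575 with all 18 libraries (1.28). Leaving out a library gave 1.13 to 1.67, with adjusted p from 0.00129 to 0.241, and kept the call in 2 of 6 fits. Between the imatinib time points NELFE was -0.70 with a minimum of 10 (adjusted p 0.0756) or none (0.15), -0.41 with TMM (0.324), -0.46 with readthrough totals (0.261), -0.71 and -0.41 with DESeq2 (0.193 and 0.703), -0.71 with all libraries (0.291), and -0.89 to -0.58 leaving out a library. PPT2 there was 1.04 without a minimum (0.0797), 1.14 and 1.45 with DESeq2 (0.608 and 0.662), 1.06 with all libraries (0.155), and 0.56 to 2.60 leaving out a library. With KCl NELFE lost its call with DESeq2's own factors (-2.07, adjusted p 0.0761) and ranged from -3.12 to -1.87 leaving out a library.

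Reversals were PPT2 at IM 1 h without the second IM 1 h replicate (0.096, range -1.91 to 0.096), CSNK2B at IM 18 h without the second CTRLim (-0.045) or second IM 18 h replicate (-0.053, range to 0.47), PPT2 with JTE under TMM (-0.011), without the third CTRL (-0.089) or first JTE replicate (-0.28, range to 1.08), and CSNK2B with KCl without the first CTRL replicate (-0.19, range to 0.96). The causes were not tested.

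Members called fell from 1 to 0 at IM 1 h without a minimum, with TMM, with either DESeq2 fit and with all libraries. Between time points they fell from 2 to 1 with a minimum of 10, TMM or readthrough totals and to 0 without a minimum, with DESeq2 or with all libraries, and with KCl from 1 to 0 with DESeq2's own factors. Leaving out a library gave 0 to 1 in each of these 3 comparisons. All genes called numbered 15 at IM 1 h, and 9 without a minimum, 4 and 7 with DESeq2, 5 with all libraries and 9 to 23 leaving out a library. They numbered 196 at IM 18 h, and 105 and 78 with DESeq2, 113 with all libraries and 106 to 181 leaving out a library. Between time points they were 315 (72 higher, 243 lower), and 203 with TMM (111 higher, 92 lower), 108 and 63 with DESeq2, 112 with all libraries and 177 to 276 leaving out a library. With JTE they were 1, and 0 without a minimum, with TMM or with readthrough totals, 30 with all libraries and 0 to 75 leaving out a library. With KCl they were 95, and 256 with a minimum of 10, 62 and 47 with DESeq2 and 59 to 90 leaving out a library.

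Replicate numbers are shared between groups, and the main fits did not pair libraries by them. In the imatinib set same-numbered libraries deviated together little (correlations over genes from -0.029 to 0.099). In the CTRL set replicates 1 and 3 did deviate together. Their correlations were 0.252 and 0.238 for JTE and 0.301 and 0.225 for KCl, each against CTRL. Those of replicate 2 were -0.011 and 0.037. In each comparison 1 or 2 of 3 libraries were closest to their own number. Whether same-numbered libraries of the CTRL set share a batch was not tested. With a replicate block NELFE at IM 1 h was 1.28 (adjusted p 0.0592, edgeR's quasi-likelihood test). NELFE and PPT2 between time points were -0.73 (0.056) and 1.10 (0.112), and members called fell to 0 in both comparisons. In the CTRL set 4 genes were called with JTE under this block. NELFE kept its call with KCl there (-2.33, adjusted p 0.00254, edgeR's quasi-likelihood test). Depth limits BAG6, STK19 and EHMT2, with at most 7 reads in a library, to statements about detection.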

Other observations

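Some other MHC-III genes had groups without overlap, and these 4 were chosen after their values were seen. Over all genes tested the groups did not overlap in 182 of 988 genes at IM 1 h, 439 of 1386 at IM 18 h, 599 of 1720 between the imatinib time points and 134 of 969 with JTE-607. CLIC1, an intracellular chloride channel protein, had 14.9, 12.2 and 19.9 RPM after IM 1 h and 21.8, 27.8 and 42.7 RPM in CTRLim, the direction opposite to NELFE (log2 fold change -1.0, SE 0.359, adjusted p = 0.185, edgeR's quasi-likelihood test). SNHG32, a host gene of small nucleolar RNAs, was like NELFE in the direct comparison of the imatinib time points, with 10.6, 12.5 and 8.15 RPM at 18 h and 22.3, 15.7 and 18.7 RPM at 1 h (log2 fold change -0.86, SE 0.367, adjusted p = 0.0909). FKBPL, an immunophilin-like protein, had 22.3, 19.6 and 17.8 RPM after IM 18 h and 8.70, 13 and 10.2 RPM in CTRLim (log2 fold change 0.83, SE 0.429, adjusted p = 0.207). DDAH2 had 10, 8 and 15 reads after JTE-607 and 2 in each CTRL replicate (log2 fold change 1.44, SE 0.749, adjusted p = 0.48). None passed the threshold.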
